A study of Mus musculus with 8 samples.

Results

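The 10 genes described here encode enzymes and receptors of prostaglandin and leukotriene signalling: Ptgs1, Ptgs2, Ptges, Hpgds, Ptger2 and Ptger4 on the prostaglandin side, and Alox5, Alox5ap, Lta4h and Ltc4s on the leukotriene side. They were chosen by symbol, under a rule that sets no threshold on measured values, and are 10 of the 49315 genes in the count table. All 10 passed the filter on low counts, which kept 13051 genes for testing. RNA-Seq was performed on bone marrow-derived macrophages (BMDMs), which are grown from the marrow of C57BL/6 mice in 10 ng/ml macrophage colony-stimulating factor. Cells of both groups were transfected with 25 nM gapmeR, an antisense oligonucleotide that directs cleavage of its target RNA. The control group received negative control gapmeR (n = 4, replicates 2, 5, 6 and 7), and the knockdown group received a gapmeR against MAARS, a macrophage long non-coding RNA (n = 4, replicates 9, 11, 13 and 15). The labels do not say which MAARS gapmeR design these libraries received, or whether libraries came from separate mice or cultures, so that p-values measure the spread between these libraries, which may be technical.

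Eicosanoids are lipid mediators made from arachidonic acid, which phospholipases release from membranes. Cyclooxygenases turn it into prostaglandin H2, from which terminal synthases make prostaglandin E2, prostaglandin D2, thromboxane and prostacyclin. 5-lipoxygenase, helped by its activating protein, turns it into leukotriene A4, from which leukotriene B4 or the cysteinyl leukotrienes are made. Macrophages are a major source of both classes, and they also carry receptors for them.

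The libraries held 19287279 to 20567123 counts in the control group and 20839671 to 24541205 in the MAARS gapmeR group, so that every MAARS gapmeR library was the deeper. MAARS itself was measured at 13.1 ± 1.36 CPM (reads per gene relative to library size, scaled with TMM factors; SD, n = 4) with control gapmeR and at 6.82 ± 0.844 with MAARS gapmeR, a log2 fold change of -0.95 (SE 0.112, edgeR adjusted p = 5.8e-05). Of 8 macrophage markers, 5 rose, among them Lyz2 (log2 fold change 0.49), Csf1r (0.45) and Mrc1 (0.79). Another 2 fell, Cd68 (-0.34) and Fcgr1 (-2.09), and the fall of Fcgr1 was the largest change among the 8. The summed level of the 8 ranged from 14423 to 17650 CPM with control gapmeR and from 17952 to 21356 with MAARS gapmeR. Lyz2 averaged 9402 CPM with control gapmeR and 13170 with MAARS gapmeR, which is most of these sums. The sums therefore mainly follow that 1 gene. Across all genes tested, 2782 rose and 3137 fell.

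Of the 10 pathway genes, 4 rose with MAARS gapmeR (Ptgs1, Alox5, Lta4h and Alox5ap), 1 fell (Ptger4) and 5 did not pass the test (Ptgs2, Ptges, Hpgds, Ltc4s and Ptger2). A call required an adjusted p under 0.05 in edgeR (quasi-likelihood F-test; Benjamini-Hochberg over all 13051 genes). The 4 that rose are set against 21.3% of all genes tested, and the 1 that fell against 24.0%. The groups did not overlap in CPM in 5 of the 10 genes, which are the same 5 that passed, against 42.1% of all genes. Changes of at least 1.5-fold were found in 3 members (Ptgs1, Alox5 and Ptger4), against 13.7% of all genes. No member passed the test with a log2 fold change beyond 1.5 in either direction, against 2.20% of all genes. The largest change among the 10 in edgeR was 1.08 on the log2 scale (Ptgs1), so that no p threshold could alter this count. The median log2 fold change was 0.10 over the 10 genes and 0.01 over all genes. In these bulk samples, fewer cells of a type and less RNA per cell cannot be told apart.

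**Figure D1:**
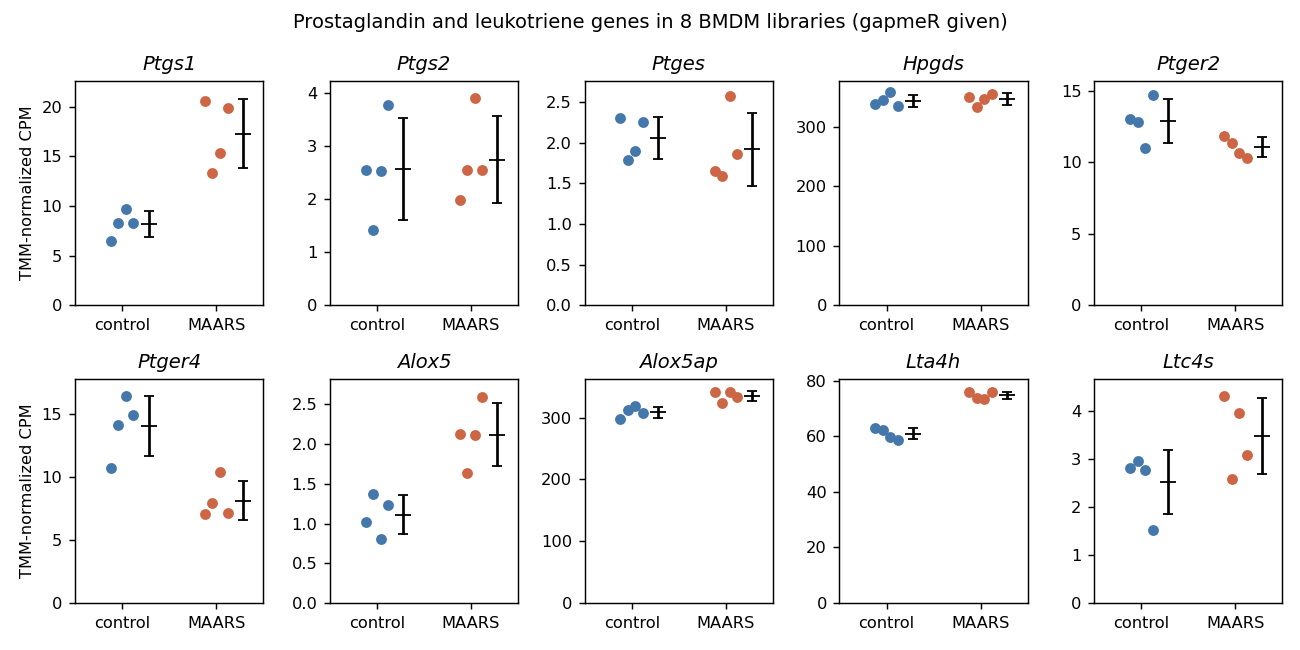
TMM-normalized CPM (y axis, linear, each panel from 0) of each of the 10 genes in the 4 control gapmeR and the 4 MAARS gapmeR libraries; points are libraries and bars are group means with SD. The groups are separate for Ptgs1, Alox5, Alox5ap, Lta4h and Ptger4 and overlap for the other 5 genes.

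Promoter sequences were available for 9 of the 10 genes in RefSeq's annotation of GRCm38.p6, each window running from 250 bases before the start site to 50 after it. The windows of 4 are shown, 5′ to 3′ on the gene's own strand: the 3 that hold AGGAAGT, a sequence of the kind bound by PU.1 and other ETS factors, and Ptgs2, the inducible counterpart of Ptgs1. Capitals mark each match on either strand to any of the 5 short motifs searched, which were picked after the sequences had been seen. The windows are chr2:36230176-36230475 on the plus strand for Ptgs1, chr1:150099781-150100080 on the plus strand for Ptgs2, chr6:65144681-65144980 on the minus strand for Hpgds and chr11:50238483-50238782 on the minus strand for Ltc4s.
Ptgs1: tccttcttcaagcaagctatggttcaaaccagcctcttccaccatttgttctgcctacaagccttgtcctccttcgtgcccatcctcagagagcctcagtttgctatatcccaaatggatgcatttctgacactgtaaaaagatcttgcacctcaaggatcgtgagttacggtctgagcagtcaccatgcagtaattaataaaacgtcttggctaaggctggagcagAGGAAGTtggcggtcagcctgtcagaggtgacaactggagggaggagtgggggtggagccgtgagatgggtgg
Ptgs2: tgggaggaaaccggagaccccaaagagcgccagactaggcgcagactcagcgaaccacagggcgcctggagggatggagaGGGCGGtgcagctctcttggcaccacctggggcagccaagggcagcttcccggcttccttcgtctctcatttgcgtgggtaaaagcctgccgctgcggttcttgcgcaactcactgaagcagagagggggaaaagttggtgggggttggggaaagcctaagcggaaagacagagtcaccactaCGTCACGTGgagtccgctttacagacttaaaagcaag
Hpgds: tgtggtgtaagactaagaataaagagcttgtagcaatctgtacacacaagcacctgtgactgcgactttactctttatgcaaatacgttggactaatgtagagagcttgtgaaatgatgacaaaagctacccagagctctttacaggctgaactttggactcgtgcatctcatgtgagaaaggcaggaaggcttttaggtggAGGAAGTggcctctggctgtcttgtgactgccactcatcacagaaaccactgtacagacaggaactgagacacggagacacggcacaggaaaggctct
Ltc4s: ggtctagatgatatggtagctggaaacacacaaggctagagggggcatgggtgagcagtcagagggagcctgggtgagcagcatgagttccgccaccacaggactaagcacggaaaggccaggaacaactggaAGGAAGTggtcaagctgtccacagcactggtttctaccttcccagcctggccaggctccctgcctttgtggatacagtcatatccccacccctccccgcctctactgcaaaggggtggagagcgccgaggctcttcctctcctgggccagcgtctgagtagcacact

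AGGAAGT began at position -23 from the start site in Ptgs1, at -48 in Hpgds and at -117 in Ltc4s, and 9.35% of the 32851 promoter windows of the same length hold it on either strand. These 3 genes differed in their response: Ptgs1 rose, while Hpgds and Ltc4s did not pass the test. The GC box GGGCGG was found in the windows of Ptgs2, Ptges, Alox5 and Ptger4 (35.7% of all windows). In Ptgs2 it began at -170. The window of Ptgs2 also holds TGACG, the core of a cAMP response element, on the opposite strand (20.8% of all windows), and the E-box CACGTG (7.15%). The 2 matches overlap one another, so that the capitals there form 1 run. TATAAA was in none of the 9 windows and in 13.6% of all. A match of letters describes the window and is no evidence of binding.

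Ptgs1 encodes cyclooxygenase-1, the isozyme that most cells make constitutively. It lies on chromosome 2 from 36230426 to 36252272, plus strand (GRCm38). Its level was 6.50, 8.30, 9.68 and 8.25 CPM in control replicates 2, 5, 6 and 7, and 20.6, 13.4, 15.3 and 19.9 CPM in MAARS gapmeR replicates 9, 11, 13 and 15. The lowest MAARS gapmeR library was above the highest control library. The means were 8.18 ± 1.30 and 17.3 ± 3.50 CPM (SD, n = 4 each), a rise of 2.11-fold (log2 fold change 1.08, SE 0.156, edgeR adjusted p = 0.000228). The 95% interval of the log2 fold change was 0.74 to 1.42, and the counts behind it were 127 to 179 with control gapmeR and 334 to 459 with MAARS gapmeR. An antisense gene, Gm43621, overlaps 3.81% of its exonic bases and had at most 4 counts in any library.

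Ptgs2 encodes cyclooxygenase-2, the isozyme known to be induced by inflammatory stimuli, and lies on chromosome 1 from 150100031 to 150108227, plus strand. It was low in every library, at 28 to 77 counts with control gapmeR and 42 to 85 with MAARS gapmeR. The levels were 2.56, 1.43, 2.54 and 3.78 CPM in the control libraries and 1.99, 2.55, 3.91 and 2.56 CPM in the MAARS gapmeR libraries. The groups overlapped, with control replicate 5 lowest and MAARS gapmeR replicate 13 highest. The log2 fold change of 0.09 (SE 0.282, edgeR adjusted p = 0.817) had a 95% interval of -0.53 to 0.71, which leaves room for a change in either direction. Its coefficient of variation was 37.3% among control libraries, against 14.1% from counting alone.

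The level of Ptgs2 was compared with that of fibroblast markers across the libraries. The summed level of 7 fibroblast markers (Col1a1, Col1a2, Col3a1, Pdgfra, Pdgfrb, Dcn and Lum, with Lum near 0) ranged from 459.6 to 1047 CPM in the control libraries and from 719.5 to 1237 in the MAARS gapmeR libraries, and Col1a2 alone averaged 351.4 and 436.5 CPM. None of the 6 markers tested passed the test between groups with edgeR, where 1 had an unadjusted p under 0.05 (2 with DESeq2 and 1 with limma-voom, and 0 called by either). Control replicate 5 had the lowest sum and MAARS gapmeR replicate 13 the highest, the same 2 libraries that were lowest and highest in Ptgs2. Across the 8 libraries, log2 Ptgs2 and the log2 marker sum had a Pearson r of 0.91 (exact permutation p = 0.00332, adjusted over the 5 uncalled members 0.0166) and a Spearman rho of 0.74 (exact permutation p = 0.0458, adjusted 0.229). Without the 2 libraries farthest from the median sum, which are the same 2, r was lower, at 0.69, and did not pass (exact permutation p = 0.119). Leaving them out also narrows the range of the sum and leaves fewer libraries. This value therefore cannot decide whether the relation rests on them. Each group holds too few libraries for a value of its own. For Ptges, Ltc4s, Ptger2 and Hpgds, r was 0.44, -0.15, -0.20 and -0.18, with exact permutation p-values of 0.274, 0.741, 0.628 and 0.673. In a fit with the marker sum as a covariate, added after these values were seen, the log2 fold change of Ptgs2 was -0.28 (edgeR adjusted p = 0.206). The other marker lists were not related to Ptgs2 by a test, and the adjustment does not cover a choice among lists. The neutrophil marker sum was also lowest in control replicate 5 (101.8 CPM), with MAARS gapmeR replicate 9 next (105.6 CPM). It was highest in control replicate 7 (299.7 CPM) and stood at 168.5 CPM in MAARS gapmeR replicate 13. The relation is thus not shown to be particular to fibroblast markers. Whether fibroblasts account for Ptgs2 in these libraries was not tested.

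**Figure D2:**
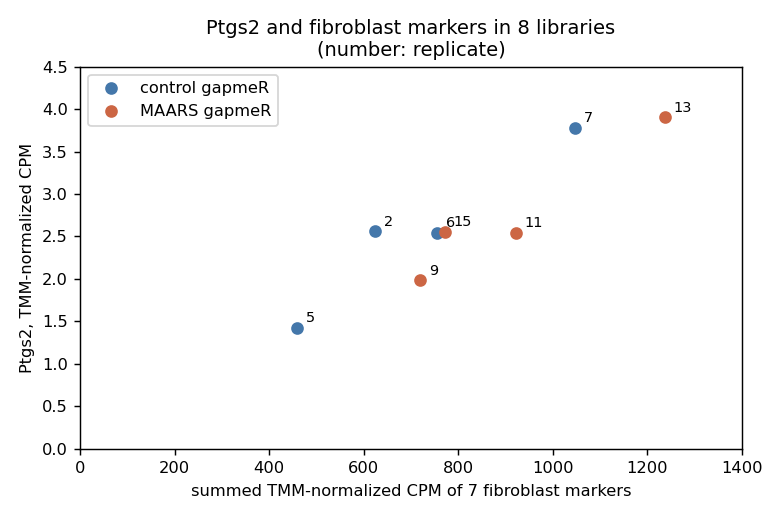
Ptgs2 in TMM-normalized CPM (y axis) against the summed TMM-normalized CPM of 7 fibroblast markers (x axis) in the 8 libraries, numbered by replicate. Control replicate 5 is lowest and MAARS gapmeR replicate 13 highest on both axes, and control replicate 7 is the second highest on both.

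The balance of the isozymes was compared as a ratio within each library, per base of exon. Ptgs2 stood at 0.334, 0.146, 0.223 and 0.389 of the Ptgs1 level in control replicates 2, 5, 6 and 7, and at 0.0819, 0.162, 0.216 and 0.109 in MAARS gapmeR replicates 9, 11, 13 and 15. The MAARS gapmeR ratios lay mostly lower, but replicates 11 and 13 were within the control range. The log2 ratio differed by -0.94 between the groups, which did not pass an exact two-sided permutation test (p = 0.114, adjusted over 3 ratios 0.343; the smallest p that 4 against 4 libraries allow is 0.0286).

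Downstream of the cyclooxygenases, neither of the terminal synthases among the 10 genes passed the test. Hpgds, the haematopoietic prostaglandin D2 synthase (chromosome 6, 65117293 to 65144908, minus strand), was at 337.9, 345.4, 358.0 and 335.6 CPM with control gapmeR and 350.4, 332.9, 347.0 and 355.8 with MAARS gapmeR. All 8 libraries lay close together, and the ranges of the groups were nearly the same. With 6599 to 8366 counts per library, the 95% interval of its log2 fold change was narrow, at -0.08 to 0.10 (estimate 0.01, SE 0.0427, edgeR adjusted p = 0.873). Ptges, the inducible microsomal prostaglandin E synthase (chromosome 2, 30889471 to 30929863, minus strand), was low, at 2.30, 1.78, 1.89 and 2.26 CPM with control gapmeR and 1.66, 1.59, 2.57 and 1.86 with MAARS gapmeR. The groups overlapped, with the highest and the lowest library both in the MAARS gapmeR group. At 35 to 56 counts, its log2 fold change of -0.10 (SE 0.204, edgeR adjusted p = 0.699) had an interval of -0.55 to 0.34. The ratio of Hpgds to Ptges per base of exon was 103.7 ± 15.5 with control gapmeR and 114.2 ± 21.9 with MAARS gapmeR (SD, n = 4), a log2 difference of 0.13 that did not pass the exact permutation test (p = 0.486, adjusted 0.543).

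The prostaglandin E2 receptors were compared next. Ptger4, which encodes the EP4 receptor that raises cAMP, was at 10.8, 14.1, 16.4 and 14.9 CPM with control gapmeR and 7.05, 7.92, 10.4 and 7.11 with MAARS gapmeR (chromosome 15, 5206661 to 5244187, minus strand). Every control library was above every MAARS gapmeR library, but control replicate 2 at 10.8 and MAARS gapmeR replicate 13 at 10.4 nearly met. The means were 14.1 ± 2.41 and 8.11 ± 1.56 CPM (SD, n = 4 each), and the level of Ptger4 was 1.73-fold lower with MAARS gapmeR (log2 fold change -0.79, SE 0.152, edgeR adjusted p = 0.00146). Antisense genes overlap 16.5% of its exonic bases; among them Ttc33 was at 43.3 ± 3.95 and 38.6 ± 2.53 CPM (log2 fold change -0.16, adjusted p = 0.0852). Ptger2, for the EP2 receptor, which also raises cAMP, was at 13.1, 12.8, 10.98 and 14.7 CPM with control gapmeR and 11.9, 11.4, 10.7 and 10.3 with MAARS gapmeR (chromosome 14, 44988195 to 45003820, plus strand). All control libraries but replicate 6 were above the MAARS gapmeR range, and replicate 6 was inside it. The log2 fold change of -0.22 (SE 0.0982) had an unadjusted p of 0.0428 in edgeR and an adjusted p of 0.0835, and it passed only without control replicate 6 (-0.30, adjusted p = 0.0282).

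Among the leukotriene genes, 3 of 4 rose, against 21.3% of all genes tested. The call of 1 of the 3, Alox5ap, did not hold in 9 of the 17 alternatives. Alox5 encodes 5-lipoxygenase, which begins leukotriene synthesis (chromosome 6, 116410077 to 116461178, minus strand). It was the least abundant member in control cells, at 1.02, 1.38, 0.811 and 1.23 CPM, and stood at 2.13, 1.63, 2.11 and 2.60 CPM with MAARS gapmeR. The lowest MAARS gapmeR library, replicate 11, was above the highest control library, replicate 5. Alox5 rose from 1.11 ± 0.246 to 2.12 ± 0.396 CPM (SD, n = 4 each), by 1.90-fold, with a log2 fold change of 0.92 (SE 0.228, 95% interval 0.42 to 1.42, edgeR adjusted p = 0.00676). The counts were 15 to 27 and 41 to 60, so that its fold change is less precise than those of the abundant members.

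Alox5ap, for the 5-lipoxygenase-activating protein (FLAP) that presents arachidonic acid to the enzyme, lies on chromosome 5 from 149264767 to 149288153, plus strand. It was at 297.3, 312.4, 318.5 and 306.9 CPM with control gapmeR and 341.1, 323.4, 341.9 and 333.7 with MAARS gapmeR. The groups were separate, with control replicate 6 and MAARS gapmeR replicate 11 closest. The rise was 1.08-fold (308.8 ± 8.99 to 335.0 ± 8.59 CPM, log2 fold change 0.12, SE 0.0421, edgeR adjusted p = 0.0399). It did not hold in 9 of the 17 alternatives: the adjusted p was 0.149 without the filter on low counts, 0.0623 with the fibroblast covariate, and 0.0512 to 0.107 when any library other than MAARS gapmeR replicate 11 was left out.

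Lta4h, for leukotriene A4 hydrolase, which makes leukotriene B4, lies on chromosome 10 from 93453411 to 93484875, plus strand. It was at 62.8, 62.3, 59.7 and 58.7 CPM with control gapmeR and 75.7, 73.7, 73.3 and 75.8 with MAARS gapmeR. The 8 libraries formed 2 tight, separate groups. Lta4h rose 1.23-fold, from 60.9 ± 2.00 to 74.6 ± 1.33 CPM (SD, n = 4 each; log2 fold change 0.29, SE 0.0430, edgeR adjusted p = 0.000247), and its spread within each group was near that of counting alone.

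Ltc4s, for leukotriene C4 synthase, which opens the cysteinyl branch, lies on chromosome 11 from 50236461 to 50238616, minus strand. It was at 2.82, 2.96, 2.76 and 1.52 CPM with control gapmeR and 4.30, 2.59, 3.95 and 3.08 with MAARS gapmeR. All MAARS gapmeR libraries but replicate 11 were above the control range, and replicate 11 was inside it. The log2 fold change of 0.47 (SE 0.231, 95% interval -0.04 to 0.97, edgeR adjusted p = 0.121) did not pass. The low control replicate 7 carries much of the estimate, which was 0.28 (adjusted p = 0.284) without it. An antisense gene, Gm26542, overlaps 26.4% of the exonic bases of Ltc4s and was itself at 0 to 3 counts with control gapmeR and 8 in every MAARS gapmeR library. The ratio of Ltc4s to Lta4h per base of exon, which sets the cysteinyl branch against the leukotriene B4 branch, was 0.247 ± 0.0611 and 0.280 ± 0.0629 (SD, n = 4), a log2 difference of 0.19 that did not pass the exact permutation test (p = 0.543, adjusted 0.543).

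**Figure D3:**
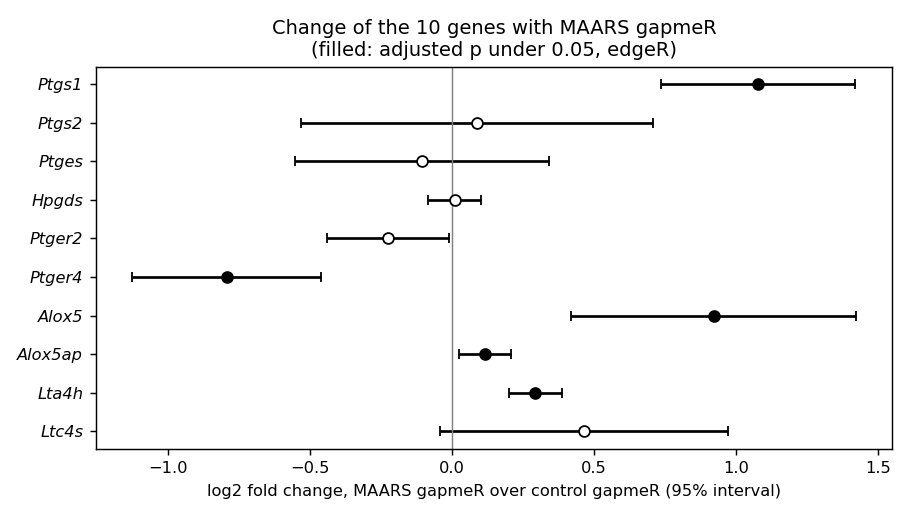
Log2 fold change (x axis, MAARS gapmeR minus control gapmeR) of each of the 10 genes (y axis) with its 95% interval as a line; filled points have an adjusted p under 0.05 in edgeR over all genes. Ptgs1 and Alox5 lie near 1, Ptger4 lies near -0.8, and the interval of Hpgds is much narrower than those of Ptgs2, Ptges and Ltc4s.

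Divided by exon length, the levels of the 10 genes covered a wide span. In control cells Alox5ap was highest at 217.5 ± 6.33 CPM per kb (SD, n = 4), followed by Hpgds at 53.6 ± 1.57 and Lta4h at 9.98 ± 0.328. Next came Ptger2 at 2.48 ± 0.296, Ltc4s at 2.48 ± 0.656, Ptger4 at 2.11 ± 0.362 and Ptgs1 at 2.11 ± 0.335 CPM per kb, and each of these overlapped its neighbour in the order. Ptgs2 at 0.563 ± 0.210 and Ptges at 0.524 ± 0.0663 also overlapped, and Alox5 was lowest at 0.270 ± 0.0598. In MAARS gapmeR cells Ptgs1 followed Lta4h at 4.45 ± 0.901 CPM per kb, overlapping Ltc4s at 3.43 ± 0.777, while Ptger2 at 2.13 ± 0.135 and Ptger4 at 1.22 ± 0.235 lay below. Alox5 at 0.516 ± 0.0964 then overlapped Ptgs2 at 0.600 ± 0.178 and Ptges at 0.489 ± 0.115. The gap between 5-lipoxygenase and its helper was wide in both groups: Alox5ap exceeded Alox5 by 838.6 ± 211.7 times per base in control cells and by 468.8 ± 82.7 times in MAARS gapmeR cells. With the length of the longest transcript in place of all exonic bases, the order was the same in MAARS gapmeR cells, and in control cells Ptger2 and Ptger4 changed places.

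**Figure D4:**
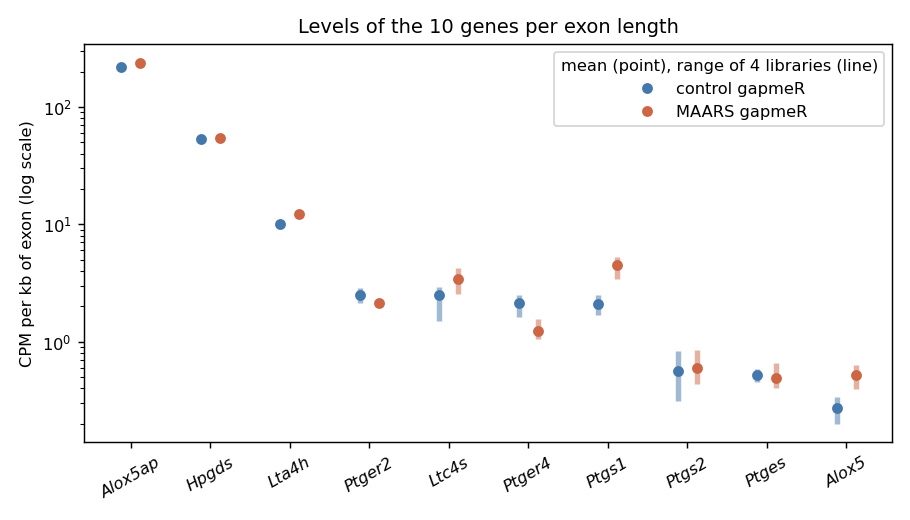
Level of each of the 10 genes (x axis) in CPM per kb of exon (y axis, log scale); points are the means of the 4 libraries of a group and lines their ranges. Alox5ap and Hpgds lie far above the other members, and Ptgs2, Ptges and Alox5 lie below 1 CPM per kb in every library.

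Mast cells, neutrophils and eosinophils also make these mediators. Of 9 mast cell markers, Fcer1a, Mcpt4, Tpsb2, Tpsab1 and Cma1 were at 0 in every library, and the summed level of the list was 1.89 to 4.03 CPM with control gapmeR and 0.899 to 1.55 with MAARS gapmeR; Hdc, for histidine decarboxylase, fell. The sum over neutrophil markers was 101.8 to 299.7 and 105.6 to 168.5 CPM, and that over eosinophil markers was 7.07 to 9.43 and 6.24 to 10.8 CPM, each in the same order of groups. The sums were 1.18 to 2.81 and 1.52 to 1.94 CPM for dendritic cells, 2.04 to 5.50 and 3.78 to 4.64 for platelets, and at most 0.344 for lymphocytes. Of the platelet markers, Ppbp, for platelet basic protein, rose from 1.04 ± 0.395 to 2.05 ± 0.279 CPM (SD, n = 4 each; log2 fold change 0.96, SE 0.260, edgeR adjusted p = 0.0106), with no overlap of the groups, as in Ptgs1 and Tbxas1, which platelets also express. The part of such cells in the levels of the 10 genes was not tested.

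The wider eicosanoid pathway was described with a list of 69 genes in 7 roles, the 10 genes included. Of the 48 that passed the filter, 14 rose (29.2%, against 21.3% of all genes tested), 12 fell (25.0%, against 24.0%) and 22 did not pass the test, with a median log2 fold change of 0.02 against 0.01 over all genes. The shares of the whole list were thus near the background. The other 21 were too low to test. The counts by role below rest on 5 to 10 genes each, stand against the same 21.3% higher and 24.0% lower, and were not tested against one another.

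In the role named substrate release, 2 of the 10 genes tested rose and 5 fell, against 21.3% and 24.0% of all genes (median log2 fold change -0.32). This role is not limited to enzymes that free arachidonic acid. Pla2g4a, the cytosolic phospholipase A2 that supplies most of the arachidonic acid for eicosanoids, fell from 33.0 ± 5.17 to 18.6 ± 2.64 CPM (SD, n = 4 each; log2 fold change -0.82, SE 0.126, edgeR adjusted p = 0.000329). Mgll, which frees arachidonic acid from the endocannabinoid 2-arachidonoylglycerol, fell by 0.50 on the log2 scale (adjusted p = 3.9e-05). Dagla and Daglb, which make that endocannabinoid, moved in opposite directions, with log2 fold changes of -0.42 (adjusted p = 0.00232) and 0.36 (adjusted p = 0.000139). Pla2g6, a calcium-independent phospholipase, rose by 0.56 (adjusted p = 0.0200), a call that was lost without MAARS gapmeR replicate 11 (0.0641). Pla2g15 and Pla2g7, which are lysosomal and secreted, fell by 0.32 and 0.35 on the log2 scale; the Pla2g7 call was lost with upper-quartile factors and without control replicate 6 or 7 or MAARS gapmeR replicate 9, 11 or 15 (adjusted p 0.0502 to 0.0959).

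In prostanoid synthesis, 2 of 10 tested rose and 1 fell, against 21.3% and 24.0% of all genes (median log2 fold change -0.03). Beside Ptgs1, the other gene that rose was Tbxas1, the thromboxane A synthase, from 93.8 ± 5.43 to 142.6 ± 5.92 CPM (SD, n = 4 each; log2 fold change 0.60, SE 0.0524, edgeR adjusted p = 8.4e-06). Ptges2, a membrane-associated prostaglandin E synthase, fell by 0.42 on the log2 scale (adjusted p = 0.00177). Ptges3, the cytosolic prostaglandin E synthase also known as the co-chaperone p23, did not pass (log2 fold change -0.04, adjusted p = 0.638). Ptgds, the other prostaglandin D2 synthase, was at 0 counts in every library, and Ptgis, the prostacyclin synthase, was too low to test.

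In the removal and transport of prostanoids, 4 of 6 tested rose and 0 fell, against 21.3% and 24.0% of all genes (median log2 fold change 0.59). None fell at an unadjusted p under 0.05 with edgeR, DESeq2 or limma-voom either. Hpgd, the 15-hydroxyprostaglandin dehydrogenase that inactivates prostaglandin E2, was at 1.02, 1.27, 1.35 and 0.737 CPM with control gapmeR and 6.57, 4.89, 4.37 and 4.94 with MAARS gapmeR. The lowest MAARS gapmeR library was far above the highest control library. The rise was 4.73-fold (log2 fold change 2.24, SE 0.210, edgeR adjusted p = 1.3e-05), the steepest rise among the 48 genes tested. Ptgr1 and Zadh2, reductases that act on the oxidized prostaglandins, rose by 0.42 and 0.43, and Abcc4, an exporter of prostaglandins, rose by 0.75. Slco2a1, the prostaglandin uptake transporter, had a log2 fold change of 0.91 that did not pass (SE 0.363, adjusted p = 0.0605).

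In leukotriene synthesis, 4 of 7 tested rose and 0 fell, against 21.3% and 24.0% of all genes (median log2 fold change 0.29). Those that rose were Alox5, Lta4h, Alox5ap and Mgst2, a microsomal glutathione transferase that can make leukotriene C4 (0.43, edgeR adjusted p = 0.0230, lost without control replicate 6 or 7 or MAARS gapmeR replicate 9 or 15, at 0.0618 to 0.0696). In leukotriene export and removal, 2 of 5 rose and 0 fell, against the same shares. In both of these roles the count of 0 held at an unadjusted p under 0.05 with edgeR, DESeq2 and limma-voom. Abcc1, the exporter of leukotriene C4, rose from 85.7 ± 8.30 to 127.6 ± 5.99 CPM (SD, n = 4 each; log2 fold change 0.57, SE 0.0670, adjusted p = 5.2e-05). Ggt5, which turns leukotriene C4 into leukotriene D4, rose from 2.07 ± 0.415 to 4.18 ± 0.587 CPM (log2 fold change 1.01, adjusted p = 0.000932). Alox15, which makes lipoxin precursors, was too low to test.

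Of the 16 receptors listed, 10 were tested, with a median log2 fold change of -0.57. Of these, 6 fell, against 24.0% of all genes, and 0 rose, against 21.3%. That count of 0 held at an unadjusted p under 0.05 with edgeR, DESeq2 and limma-voom. The fall was uneven: 2 of 5 prostanoid receptors fell (median -0.22) and 4 of 5 leukotriene and lipoxin receptors (median -0.93). The 4 not called were Ptger1 (log2 fold change 0.06), Ptger3 (0.39), Ptger2 (-0.22) and Cmklr1 (-0.32). Beside Ptger4, the prostacyclin receptor gene Ptgir fell from 9.64 ± 1.10 to 6.22 ± 0.578 CPM (SD, n = 4 each; log2 fold change -0.63, edgeR adjusted p = 0.000889). Both cysteinyl leukotriene receptor genes fell, Cysltr1 by 0.51 on the log2 scale (34.7 ± 4.69 to 24.4 ± 1.60 CPM, adjusted p = 0.00103) and Cysltr2 by 1.06 (3.72 ± 0.747 to 1.76 ± 0.573 CPM, adjusted p = 0.00367). Ltb4r1, for the high-affinity leukotriene B4 receptor, fell by 0.93 on the log2 scale (edgeR adjusted p = 0.0159), a call lost without control replicate 7 (0.0503). Its level was low, at 1.11 ± 0.280 and 0.582 ± 0.104 CPM, from 15 to 29 counts with control gapmeR and 10 to 15 with MAARS gapmeR. Fpr2, a formyl peptide receptor that also binds lipoxin A4, was at 2.56, 3.01, 8.11 and 7.51 CPM with control gapmeR and 0.710, 0.955, 1.47 and 0.953 with MAARS gapmeR. The control libraries fell into a lower and a higher pair, both above the MAARS gapmeR range. The log2 fold change was -2.37 (SE 0.406, adjusted p = 0.000713), which is a 5.16-fold lower level. The receptors for prostaglandin D2 (Ptgdr and Ptgdr2), prostaglandin F (Ptgfr) and thromboxane (Tbxa2r) were too low to test.

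**Figure D5:**
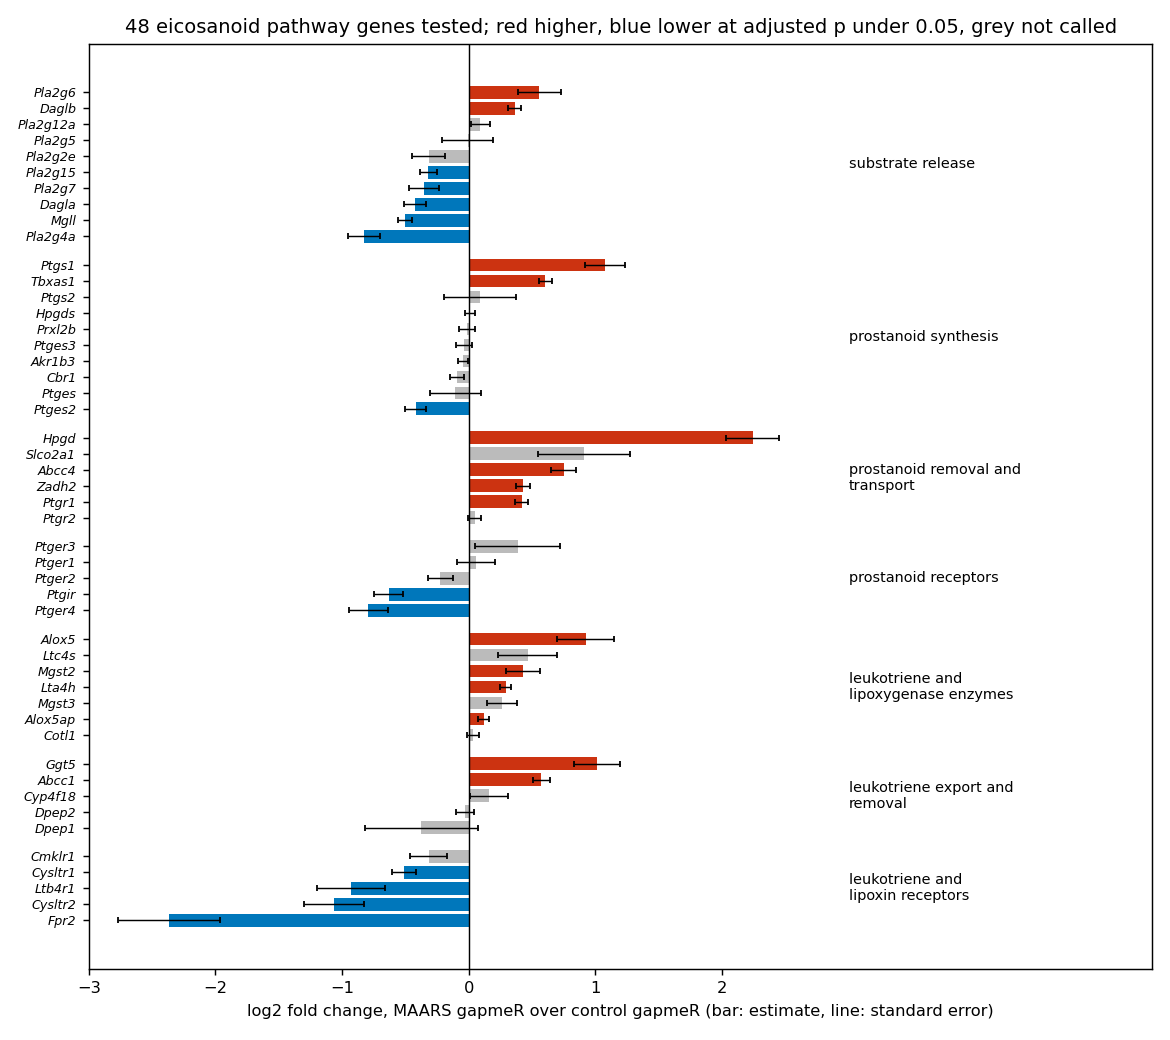
Log2 fold change (MAARS gapmeR minus control gapmeR) of the 48 tested genes of the eicosanoid list, on the x axis as bars with the standard error as a line, and the genes on the y axis in their 7 roles; red bars are higher and blue bars lower at an adjusted p under 0.05 in edgeR over all genes, and grey bars were not called. No receptor lies among the higher calls, and Hpgd and Fpr2 mark the 2 ends of the range at 2.24 and -2.37.

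The genes most like Ptgs1 and Alox5 were ranked by the root mean square difference of log2 CPM, centred on each gene's mean, over the 8 libraries. Closest to Ptgs1 among 11001 genes were Fcgr2b, the inhibitory receptor for IgG (0.102), Fcgrt, the neonatal Fc receptor (0.108), and Zdhhc14, a palmitoyltransferase (0.111). Fcgr2b averaged 171.2 CPM in the control libraries and 322.1 CPM in the MAARS gapmeR libraries. Closest to Alox5 among 11002 genes were Rdm1 (0.0743), Wdr35, a component of intraflagellar transport (0.148), and Rab34, a small GTPase (0.161). Each of these 6 genes also rose between the groups, and the measure takes in that difference.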

How the data were processed

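Total RNA from 8 BMDM libraries was ribodepleted and sequenced as paired ends of 100 bases. According to the submitters' processing notes, Trimmomatic 0.36, STAR 2.5.2b and featureCounts of Subread 1.5.2 were used, with build GRCm38. The deposited values are raw counts per Ensembl gene, not normalized, made by the authors; the strand setting and the handling of multi-mapping reads are not given in the sources used here, so antisense overlap is stated beside the genes. Symbols and exon lengths came from GENCODE M21 (99.5% of identifiers matched).

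Counts were analysed with R 4.3.3 and edgeR 4.0.16: filterByExpr (minimum count 10, minimum total 15), TMM factors, and quasi-likelihood tests of 4 against 4 libraries with Benjamini-Hochberg adjustment over 13051 genes. Scripts were tested on simulated data. Ratios added 0.5 to each count and were compared by an exact two-sided permutation test over the 70 assignments of 4 and 4 libraries. Alternatives used DESeq2 1.42.0, limma 3.58.1, sva 3.50.0, other factors and filters, thinning to the smallest total, other call rules and leaving out each of the 8 libraries. Differences between replicate libraries exceeded sampling noise (chi-square per gene 4.26 to 15.4), so each was counted. Genes named beyond the 10 were, in each role, the up to 2 called genes with the lowest p in each direction; the remaining called genes of a role, the uncalled ones and markers were named after their values were seen. The 10 genes, the pathway and marker lists and the motifs were chosen with earlier results of these data known. Neither group assignment nor any test used the authors' own comparisons.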

Additional observations from a re-analysis of the deposited data

Results flagged for a closer look

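In 68 sets of 4 libraries (each named gene and ratio in each group), 5 held a library whose distance from the nearest other exceeded Dixon's 95% critical value; chance alone picks out about 1 set in 20. Control replicate 7 stood apart in Ltc4s, at a log2 CPM of 0.69 against 1.51 to 1.61 in the other control libraries. The same library stood apart in the log2 ratio of Ltc4s to Lta4h, at -5.25 against -4.47 to -4.39, a ratio that holds the same Ltc4s counts. Control replicate 5 was low in Pla2g4a, at a log2 CPM of 4.67 against 5.11 to 5.19. MAARS gapmeR replicate 11 was high in Zadh2, at a log2 CPM of 5.72 against 5.62 in each of the others, and low in Ggt5, at 1.76 against 2.17 to 2.22. No cause of these distances was tested.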

How the results depend on the processing

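Of 527 values (31 named genes under 17 alternatives), 498 kept their direction and their side of the threshold, 21 lost the call, 1 gained it and 7 turned direction. Requiring a log2 fold change beyond 1.5 in either direction, 0 of the 10 genes rose and 0 fell, 1 of the pathway list rose and 1 fell, and 67 of all genes rose and 220 fell. Requiring a fold of at least 1.5 left 2 of the 10 genes higher and 1 lower. It left 6 higher and 6 lower in the pathway list, and 959 higher and 823 lower among all genes. These rules call fewer genes by construction. Leaving out 1 library at a time gave 3 to 4 members higher and 1 to 2 lower, the 2 being without control replicate 6, where Ptger2 joined Ptger4; 12 to 14 of the pathway list higher and 10 to 14 lower; and 2323 to 2700 of all genes higher and 2774 to 3032 lower. The log2 difference in ratio ran from -1.21 to -0.71 for Ptgs2 to Ptgs1 and from 0.06 to 0.28 for Hpgds to Ptges. For Ltc4s to Lta4h it ran from -0.017 (without control replicate 7) to 0.31; the cause was not tested.

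The sign turned in 2 uncalled genes whose intervals include 0. Over the left-out libraries, the log2 fold change of Ptgs2 ran from -0.13 to 0.34 and that of Hpgds from -0.0039 to 0.029. Ptgs2 had -0.12 without control replicate 5, -0.13 without MAARS gapmeR replicate 13 and -0.28 with the fibroblast covariate, which was added after the data were seen. Hpgds had -0.00056 after thinning, -0.0039 without control replicate 7, -0.00011 without MAARS gapmeR replicate 9 and -0.0028 without replicate 15. The causes were not tested. Upper-quartile factors moved the share of calls that were higher from 47.0% to 60.4% and the median of all genes by 0.063, without a change in the calls of the 10 genes. No paired analysis was possible because the groups share no replicate number. Among the 10 genes, depth limits Alox5, Ptgs2, Ptges and Ltc4s most, at 15 to 91 counts per library. Ltb4r1 of the wider list had 10 to 29 counts.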
